A study of Mus musculus with 8 samples.

Results

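The comparison described here is between 2 populations of hair follicle cells sorted from the skin of wild-type (WT) mice, the CD34-negative fraction that the sample labels call hair germ and the CD34-positive fraction that they call bulge. Its members are the 4 WT arrays of the 8 arrays in the series, 2 per population, taken by their titles. Both fractions were sorted as keratin 15-GFP positive and α6-integrin positive cells, so they share those 2 gates and differ in the gate on the surface protein CD34. All WT mice were labelled postnatal day 20, when follicles rest (telogen), and had eaten food with doxycycline, 1 g in each kg, for 1 day. The other 4 arrays hold the same 2 fractions from mice with a Tet-on Runx1 transgene (Runx1 iTG) on the same food, at day 20 for replicate 1 and day 21 for replicate 2. Doxycycline was given to repress H2BGFP, per the treatment record, and WT and transgenic mice received it alike. Which promoters drive the transgenes, how many mice stand behind each array and whether animals were pooled are not given in the sources used here. The labels call the arrays biological replicates, so a p-value here measures the spread among arrays so labelled.

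As background, the bulge is the part of the resting follicle where long-lived stem cells are kept, and CD34 is its usual surface marker in the mouse. The hair germ is the small cell cluster between the bulge and the dermal papilla. It responds first when a new growth phase starts, a step in which WNT, BMP and Hedgehog signalling take part. Above the bulge lie the isthmus and the junctional zone, whose cells express Lrig1 and Plet1, and the sebaceous gland, whose cells are built to make and store lipid under control of the nuclear receptor PPARγ. CD34 is low in all of these places, so the gate on CD34 does not by itself name one of them.

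Deposited intensities were scaled to a common 75th percentile, and the scaled value is called signal below. Differences are CD34-negative minus CD34-positive on the log2 scale, each with its standard error (SE), n = 2 arrays per population. Signals below 31.1, the 95th percentile of 27 bacterial control probe sets, are treated as below background. Where the dimmer population lies there, the fold change is a bound and is written "at least". Of 18193 genes tested, 571 were higher in the CD34-negative fraction (3.14% of all genes) and 690 were lower (3.79%) at an adjusted p under 0.05 in limma. All 1261 of them (6.93%) had arrays that did not overlap between the fractions. That alone is common, since both CD34-negative arrays lay above both CD34-positive arrays for 23.0% of genes and below them for 28.8%. The median difference over all genes was -0.0812. Changes were large: 259 of the higher genes and 394 of the lower genes differed by more than 4-fold as fitted. With a bound in place of the fitted value where only the dimmer fraction was below background, 248 and 359 did. In 1 higher and 5 lower genes both fractions were below background, so their size is not known, and they kept the fitted value in these counts. The number of calls depended on which array was kept: leaving out the WT arrays one at a time, in the order CD34-positive 1, CD34-positive 2, CD34-negative 1 and CD34-negative 2, gave 334, 151, 269 and 173 higher genes, and 246, 181, 376 and 260 lower genes. With no intensity trend in the model's prior variance 150 genes were higher and 261 lower. Counts of a list without single arrays are given below in that same order, with the count under no trend in parentheses. Where leaving out 1 WT array ended the call of a named gene, the array whose absence gave the highest adjusted p is named at the end of the paragraph with that p, and calls that ended when a gene's probe sets were averaged are named there too. Across genes, which are not independent, Spearman's rho was 0.953 between the 2 CD34-positive arrays, 0.956 between the 2 CD34-negative arrays, and between 0.904 and 0.920 across the fractions. The share of probe sets above background lay between 70.5% and 77.0% on the 4 arrays and was lower on both CD34-negative ones. In every group replicate 1 carried Y-linked signal and replicate 2 carried Xist signal, so sex was balanced between the fractions.

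**Figure D1:**
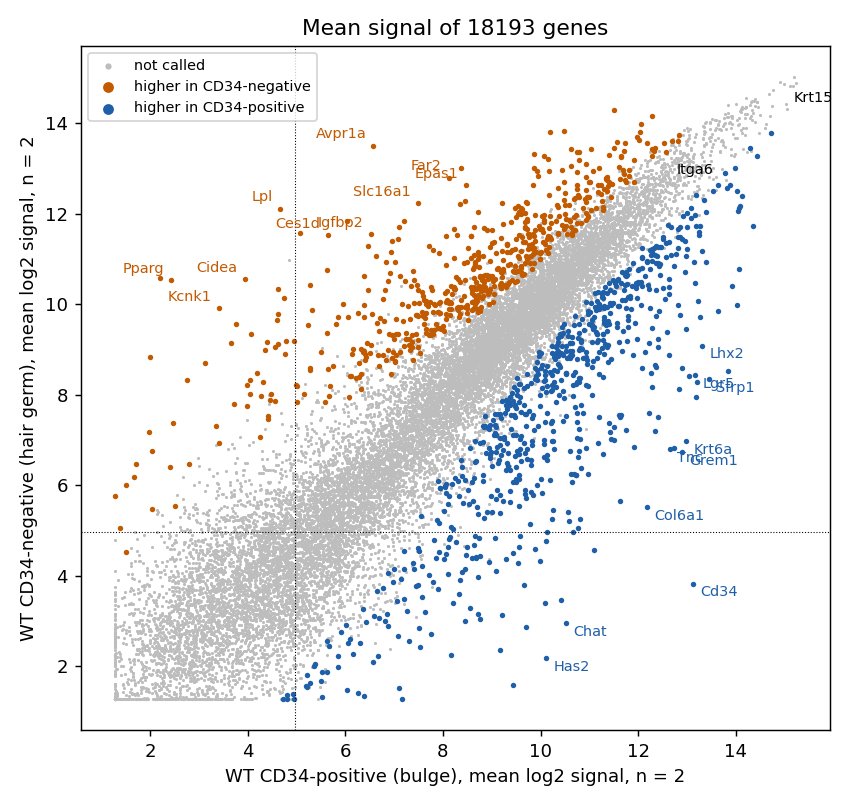
Mean log2 signal of each of 18193 genes in the WT CD34-positive fraction (horizontal axis) against the WT CD34-negative fraction (vertical axis), 2 arrays each, with orange for the 571 genes called higher in the CD34-negative fraction, blue for the 690 called lower and grey for the rest. Dotted lines mark the background limit of 31.1; Cd34 sits far below the diagonal, Pparg and Avpr1a far above it, and the sort genes Itga6 and Krt15 near it.

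The genes behind the sort came first. Cd34 had signals of 7077 and 11204 on the CD34-positive arrays and 3.8 and 53.1 on the CD34-negative arrays. It was at least 286-fold lower in the CD34-negative fraction (log2 difference -9.30, SE 0.996, adjusted p = 0.000596), which the gate itself sets. Itga6, which encodes the α6 integrin that both fractions were gated on, read 6519.9 and 6247 against 7074.5 and 6372 (log2 difference 0.07, SE 0.221, adjusted p = 0.9). Krt15, the keratin whose promoter marks the sorted cells, was among the brightest genes in both fractions, with 31733 and 36177 against 21868 and 18841 (log2 difference -0.74, SE 0.226, adjusted p = 0.0874). Neither passed the test, although Krt15 did with genes below background in every group left out (adjusted p = 0.045), and for Krt15 both CD34-negative arrays lay below both CD34-positive ones. Runx1, the gene the transgenic line carries, read 658 and 903 against 495 and 489 in these WT cells (log2 difference -0.65, SE 0.248, adjusted p = 0.163).

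Of 27 measured genes known from bulge stem cells, 20 were lower in the CD34-negative fraction, none was higher, and the median difference was -2.93. The list holds 2 of the sort genes: Cd34, counted among the 20 though the gate itself sets its difference, and Krt15, which did not pass. Lhx2, a transcription factor needed to keep bulge cells in their state, had signals of 9293 and 11076 on the CD34-positive arrays and 676 and 437 on the CD34-negative arrays, 18.7-fold lower (log2 difference -4.22, SE 0.287, adjusted p = 8.79e-05). Grem1, a secreted BMP antagonist, fell from 7338 and 7939 to 167 and 67.4 (log2 difference -6.17, SE 0.424, adjusted p = 9.05e-05). Lgr5, the R-spondin receptor of the lower bulge and the germ, read 9953 and 8471 against 520.5 and 229 (log2 difference -4.73, SE 0.359, adjusted p = 0.000132). For these 3 genes both CD34-negative arrays lay far below both CD34-positive arrays, yet above background. The T-box factor Tbx1 (-3.75, adjusted p = 0.000286), the calcineurin-regulated factor Nfatc1 (-2.15, adjusted p = 0.000515), the matrix protein Postn (-4.04, adjusted p = 0.000161) and the WNT-repressing factor Tcf7l1 (-2.93, adjusted p = 0.0132) moved the same way. Sox9, a factor of the whole outer root sheath lineage, fell as well (-1.15, adjusted p = 0.024). The count of lower bulge genes was 15, 13, 16 and 15 (13) without each WT array in turn. Calls ended without CD34-negative 2 for Sox9 (adjusted p = 0.19); without CD34-positive 2 for Tcf7l1 (adjusted p = 0.12). With probe sets averaged, the call ended for Sox9 (adjusted p = 0.18).

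Genes known from the hair germ did not mark the fraction labelled hair germ. Of 26 such genes measured, 10 were lower in it and 2 were higher, with a median difference of -1.01. Cdh3, the P-cadherin by which germ cells are usually recognised, had signals of 1618 and 1402 on the CD34-positive arrays and 1062 and 567 on the CD34-negative arrays, and did not pass (log2 difference -0.96, SE 0.372, adjusted p = 0.169), though the mean of its probe sets did (adjusted p = 0.038). Gli1, the transcriptional target of Hedgehog signalling, read 2422 and 1291 against 232 and 98.9 (log2 difference -3.54, SE 0.681, adjusted p = 0.0135). Lef1, the WNT effector of germ and matrix cells, read 1795 and 481 against 161 and 137.5 (log2 difference -2.64, SE 0.566, adjusted p = 0.0217). All of these germ markers were thus lower, or not detectably different, where the label would place them. The homeobox factors Msx2 (-3.88, adjusted p = 0.0014), Dlx2 (-4.51, adjusted p = 0.0014), Dlx3 (-3.79, adjusted p = 0.00274) and Hoxc13 (-3.46, adjusted p = 0.0198) fell as well, and so did Trps1 (-3.25, adjusted p = 0.00114). The exceptions were Edar and Cux1. Edar, the ectodysplasin receptor, rose from 38.4 and 11.6 to 501 and 666 (at least 18.6-fold, log2 difference 4.77, SE 0.899, adjusted p = 0.0122), and the homeobox factor Cux1 rose by 1.61 (adjusted p = 0.0236). Wnt10a read 379 and 337 against 858 and 544 (log2 difference 0.94, SE 0.461, adjusted p = 0.289) and Sox4 read 1992 and 998 against 1466 and 1547 (log2 difference 0.10, SE 0.418, adjusted p = 0.937), neither past the threshold. Because the markers go against the label, the populations are called by their gate here. Without each WT array in turn (CD34-positive 1 and 2, then CD34-negative 1 and 2), 4, 5, 9 and 5 (4) hair germ genes were lower and 2, 0, 0 and 1 (0) higher. A lower signal in sorted bulk cells can come from fewer cells of a type or from less RNA per cell, and the arrays cannot tell these apart. Single arrays mattered here, and calls ended without CD34-negative 2 for Gli1 (adjusted p = 0.14), Lef1 (adjusted p = 0.15) and Hoxc13 (adjusted p = 0.16); without CD34-positive 2 for Dlx3 (adjusted p = 0.057), Edar (adjusted p = 0.14) and Cux1 (adjusted p = 0.18). With probe sets averaged, the call ended for Edar (adjusted p = 0.12) and Cux1 (adjusted p = 0.084).

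Genes of the sebaceous gland stood on the other side. Of 14 measured, 11 were higher in the CD34-negative fraction and none lower, with a median difference of 3.67, and the count stayed at 10, 10, 11 and 10 (10) without each WT array. Pparg, the nuclear receptor that drives sebocyte and fat cell differentiation, had signals of 9.5 and 3.1 on the CD34-positive arrays and 1069 and 2069 on the CD34-negative arrays, at least 47.8-fold higher (log2 difference 8.11, SE 0.587, adjusted p = 0.000109). Scd1, the stearoyl-CoA desaturase that is lost in the asebia mouse, rose from 3254 and 2594 to 18375 and 21864 (log2 difference 2.79, SE 0.249, adjusted p = 0.000264). Mc5r, the melanocortin receptor of sebocytes, rose from 27.4 and 54.6 to 675 and 2762 (log2 difference 5.14, SE 0.759, adjusted p = 0.00354). Pparg was below background on both CD34-positive arrays, whereas Scd1 was already bright there. The lipid droplet protein Cidea (at least 48.3-fold, log2 6.61, adjusted p = 0.000286), the fatty acid hydroxylase Fa2h (4.64, adjusted p = 4.67e-05), the fatty alcohol enzyme Far2 (4.68, adjusted p = 0.000109), the very-long-chain elongase Elovl3 (4.05, adjusted p = 0.000248), the acyl-CoA synthetase Acsbg1 (3.87, adjusted p = 0.000183) and the microsomal transferase Mgst1 (3.46, adjusted p = 0.00026) belonged to the same group. Fads2 (-0.98, adjusted p = 0.496), Scd3 (0.62, adjusted p = 0.835) and Cidec (0.28, adjusted p = 0.925) were the 3 members that did not pass.

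Upper follicle genes divided. Of 12 measured, 5 were higher in the CD34-negative fraction and 1 was lower. Krt79, the keratin of the sebaceous duct and infundibulum, rose from 891 and 1306 to 10654.5 and 9336 (log2 difference 3.21, SE 0.278, adjusted p = 0.000248). Lrig1, the ErbB inhibitor that marks junctional zone stem cells, rose from 3307.5 and 3138 to 11038 and 8818 (log2 difference 1.61, SE 0.230, adjusted p = 0.00286). Plet1, a surface protein of the same zone, rose from 1571.5 and 1883 to 9091 and 6653 (log2 difference 2.18, SE 0.335, adjusted p = 0.00441). All 3 were well above background in both fractions. The factor Gata6 (4.11, adjusted p = 0.0131) and the defensin Defb6 (3.02, adjusted p = 0.0057) rose too, while the water channel Aqp3 fell (-1.27, adjusted p = 0.0193). Lgr6, the isthmus member of the R-spondin receptors, read 6956 and 4503.5 against 4904 and 4630.5 and did not pass (log2 difference -0.23, SE 0.286, adjusted p = 0.713). Without each WT array in turn, 3, 3, 2 and 5 (1) upper follicle genes were higher. Genes of differentiated epidermis did not rise with them: of 29 measured, none was higher and 7 were lower, among them the envelope protein Lor (-1.72, adjusted p = 0.0105) and the corneodesmosome protein Cdsn (-1.99, adjusted p = 0.0286). On leaving out each WT array, 3, 2, 3 and 2 (2) of them were lower. Some genes lost their call, namely without CD34-negative 2 for Aqp3 (adjusted p = 0.17); without CD34-positive 1 for Plet1 (adjusted p = 0.054) and Gata6 (adjusted p = 0.1); without CD34-positive 2 for Defb6 (adjusted p = 0.078), Lor (adjusted p = 0.13) and Cdsn (adjusted p = 0.21). Averaging probe sets ended the call of Aqp3 (adjusted p = 0.15).

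**Figure D2:**
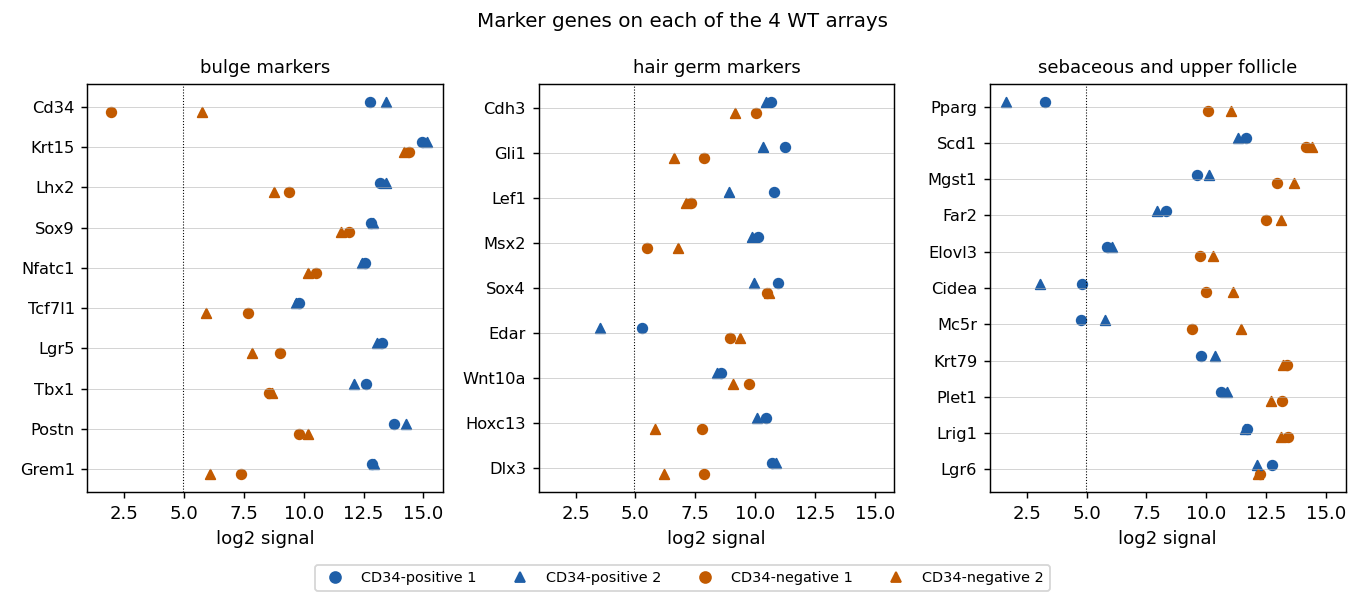
Log2 signal of marker genes on each of the 4 WT arrays, blue for CD34-positive and orange for CD34-negative, circles for replicate 1 and triangles for replicate 2, with a dotted line at the background limit. Bulge markers lie further right in blue, hair germ markers also do so apart from Edar, Wnt10a and Sox4, and sebaceous and Krt79, Plet1 and Lrig1 points lie further right in orange.

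The higher genes named for their fitted difference or their p included receptors and enzymes of lipid handling. Avpr1a, the vasopressin V1a receptor, had the smallest adjusted p of all: its signals were 78.7 and 116 on the CD34-positive arrays and 10979 and 12294 on the CD34-negative arrays, 122-fold higher (log2 difference 6.93, SE 0.247, adjusted p = 1.78e-06). Lpl, the lipoprotein lipase that frees fatty acids from circulating triglyceride, rose from 64.1 and 9.9 to 4291 and 4564, at least 142-fold (log2 difference 7.46, SE 0.739, adjusted p = 0.00042). Tlcd3b, a ceramide synthase family protein, rose from 6.7 and 3.1 to 1546 and 1525 (at least 49.3-fold, log2 difference 8.39, SE 0.746, adjusted p = 0.00026). Each of these genes was bright on both CD34-negative arrays and dim on both CD34-positive arrays. There were 3 esterases among the top genes, the carboxylesterase Ces1d (5.88, adjusted p = 2.46e-05), the arylacetamide deacetylase Aadac (5.81, adjusted p = 6.45e-05) and the butyrylcholinesterase Bche (at least 41.3-fold, log2 5.71, adjusted p = 0.000482). The potassium channel Kcnk1 (at least 31.0-fold, log2 6.50, adjusted p = 0.00124), the chitinase-like protein Chil1 (at least 24.4-fold, log2 5.81, adjusted p = 0.00096), the cytochrome Cyp2f2 (at least 18.1-fold, log2 5.49, adjusted p = 0.000658), the intracellular FGF family member Fgf13 (at least 10.3-fold, log2 5.57, adjusted p = 0.00828) and the ankyrin repeat protein Kank4 (at least 14.7-fold, log2 6.84, adjusted p = 0.00205) were named for their fitted log2 difference too, but where a bound is given their order by size is not known. Slc16a1, a monocarboxylate transporter (4.74, adjusted p = 2.46e-05), Epas1, the hypoxia-inducible factor HIF-2α (4.16, adjusted p = 2.95e-05), and the surface protein Ly6e (3.60, adjusted p = 0.000109) were among those with the smallest adjusted p. The threshold was missed without CD34-negative 2 for Fgf13 (adjusted p = 0.098).

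Of 39 fatty acid and triglyceride genes 19 were higher and 1 lower, with a median of 1.01. Elovl6, which lengthens palmitate, rose from 1578 and 1302 to 14488 and 14660.3 (log2 difference 3.35, SE 0.246, adjusted p = 0.000109). Srebf1, the regulator of lipogenic enzymes, rose from 1157 and 1158 to 5351 and 5610.0 (log2 difference 2.24, SE 0.206, adjusted p = 0.000286). Ppara, the receptor that switches on fatty acid oxidation, rose from 286 and 252 to 2914.5 and 2931 (log2 difference 3.45, SE 0.268, adjusted p = 0.000153). These were regulators and enzymes of both synthesis and breakdown. Acacb (3.50, adjusted p = 0.00026), Acsl4 (3.40, adjusted p = 0.000274), Gpam (2.20, adjusted p = 0.0021) and the fatty acid synthase Fasn (1.01, adjusted p = 0.0406) were also higher, and the desaturase family member Fads3 was the lower one (at least 4.53-fold, log2 -3.22, adjusted p = 0.00892). The list shares Pparg, Scd1, Far2, Elovl3, Plin2 and Dgat2 with the sebaceous list. In the fits that lack 1 WT array, 13, 12, 14 and 12 (11) of its genes were higher. Of 23 cholesterol synthesis genes 3 were higher, among them Fdps, which makes farnesyl pyrophosphate (1.33, adjusted p = 0.032), and without each WT array the count was 0, 0, 0 and 1 (0). Adjusted p rose above 0.05 without CD34-negative 2 for Fasn (adjusted p = 0.25) and Fdps (adjusted p = 0.24); without CD34-positive 2 for Fads3 (adjusted p = 0.11). With probe sets averaged, the call ended for Fdps (adjusted p = 0.49).

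Organelles that burn fatty acids followed, on lists put together after values had been seen. Of 39 peroxisome genes 12 were higher and none lower. Acaa1b, the peroxisomal thiolase, rose from 25.5 and 44.6 to 2672 and 3527, 91.1-fold (log2 difference 6.51, SE 0.588, adjusted p = 0.000274), and Acox2, the branched-chain acyl-CoA oxidase, from 19.1 and 4.0 to 421 and 409 (at least 13.3-fold, log2 difference 5.57, SE 1.18, adjusted p = 0.0204). Hsd17b4, the bifunctional enzyme of the same pathway, read 639 and 809 against 2678 and 2901 (log2 difference 1.95, SE 0.278, adjusted p = 0.00285). The peroxisome division factor Pex11a (1.91, adjusted p = 0.0254) and the assembly factor Pex16 (2.04, adjusted p = 0.0109) rose as well. Of 28 genes of mitochondrial fatty acid oxidation 9 were higher and 1, the pyruvate dehydrogenase kinase Pdk2, was lower (-1.19, adjusted p = 0.0326). Examples were the carnitine carrier Slc25a20 (2.03, adjusted p = 0.000954) and the dienoyl-CoA reductase Decr1 (2.43, adjusted p = 0.00307). Of 19 tricarboxylic acid cycle genes 5 were higher, and all 19 differences were positive. Without each WT array in turn the counts were 6, 4, 7 and 5 (4) for peroxisomes, 5, 2, 5 and 3 (1) for mitochondrial oxidation and 3, 0, 3 and 0 (0) for the cycle. Calls ended without CD34-negative 2 for Pex11a (adjusted p = 0.2); without CD34-positive 2 for Acox2 (adjusted p = 0.19), Pex16 (adjusted p = 0.1), Pdk2 (adjusted p = 0.22) and Decr1 (adjusted p = 0.06). Averaging probe sets ended the call of Pex16 (adjusted p = 0.087).

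In the respiratory chain the differences were small but mostly of 1 sign. Of 82 measured, 14 were higher, none was lower, 74 differences were positive, and the median was 0.81. Sdhd, an anchor subunit of complex II, had signals of 1677 and 1219 on the CD34-positive arrays and 5674 and 7924 on the CD34-negative arrays (log2 difference 2.23, SE 0.359, adjusted p = 0.00565). Cyc1, the cytochrome c1 of complex III, rose from 2149.6 and 1268 to 4480.0 and 5907 (log2 difference 1.64, SE 0.298, adjusted p = 0.0102), and Atp5b, the catalytic subunit of ATP synthase, from 7230.3 and 7352.5 to 12823 and 14513 (log2 difference 0.90, SE 0.196, adjusted p = 0.023). Genes for glycolysis and the hypoxia response gave 1 higher (3.70%) and 2 lower (7.41%) of 27, against 3.14% and 3.79% of all genes. The oxidative phosphorylation count was 15, 0, 6 and 0 (0) without each WT array. Hspd1 (1.60, adjusted p = 0.0044) and its partner Hspe1 (1.71, adjusted p = 0.0077), mitochondrial chaperonins, were 2 of 5 higher members of a list of 65 chaperones, in which 4 were lower. Cytosolic ribosomal proteins gave 0 higher and 1 lower (2.04%) of 49. Single arrays mattered here, and calls ended without CD34-negative 2 for Cyc1 (adjusted p = 0.11) and Atp5b (adjusted p = 0.18); without CD34-positive 2 for Sdhd (adjusted p = 0.091), Hspd1 (adjusted p = 0.066) and Hspe1 (adjusted p = 0.1).

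Of 46 glutathione and redox genes 13 were higher and 2 lower. Gsta4, a transferase for lipid peroxidation products, rose from 114 and 96.7 to 621 and 1119.9 (log2 difference 2.99, SE 0.412, adjusted p = 0.00242). Gpx4, which reduces lipid peroxides in membranes, rose from 1894 and 1111.5 to 4581 and 4725 (log2 difference 1.68, SE 0.342, adjusted p = 0.0176). Glutathione reductase, Gsr, rose from 676 and 834 to 3721 and 2329 (log2 difference 1.97, SE 0.339, adjusted p = 0.00783). Members acting on lipid peroxides and on glutathione supply were therefore both among those that passed. The 2 lower members were Gstm6 (at least 8.29-fold, log2 -3.64, adjusted p = 0.0128) and Gstt4 (at least 1.62-fold, log2 -3.21, adjusted p = 0.0489). Of 70 cytochrome P450 genes 4 were higher (5.71%) and 2 lower (2.86%), near the 3.14% and 3.79% of all genes. The steroid 17α-hydroxylase Cyp17a1 was among the higher (at least 20.7-fold, log2 5.27, adjusted p = 0.00623). Of 40 nuclear receptor genes, a list made after values were seen, 5 were higher and 1 lower with a median of -0.17, and the thyroid hormone receptor Thrb (2.26, adjusted p = 0.0105) and the estrogen receptor Esr1 (3.73, adjusted p = 0.0264) were among the higher. Immediate early genes, which respond to tissue handling as well as to signals, gave 5 higher of 27 (18.5%), including Egr2 (3.15, adjusted p = 0.00106), Egr3 (2.49, adjusted p = 0.00411) and Fos (1.74, adjusted p = 0.0154). What cell isolation contributed to these was not tested. Without each WT array, 7, 5, 7 and 4 (3) redox genes and 4, 2, 3 and 2 (2) immediate early genes were higher. Some genes lost their call, namely without CD34-negative 2 for Thrb (adjusted p = 0.11); without CD34-positive 1 for Gsr (adjusted p = 0.072) and Gstm6 (adjusted p = 0.1); without CD34-positive 2 for Gpx4 (adjusted p = 0.17), Gstt4 (adjusted p = 0.27), Cyp17a1 (adjusted p = 0.081), Esr1 (adjusted p = 0.22), Egr3 (adjusted p = 0.067) and Fos (adjusted p = 0.16).

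Part of the cell division genes was higher in the CD34-negative fraction. Of 32 DNA replication genes 11 were higher and none lower, with all 32 differences positive and a median of 1.51. Of 36 mitosis genes 7 were higher and none lower, with all 36 differences positive and a median of 1.92. Mcm6, Mcm3 and Mcm5 encode subunits of the replicative helicase, and Cdt1 loads that helicase onto DNA. Their promoters are printed because all 4 hold the 8-letter E2F-type sequence TTTGGCGC on one of the strands. E2F factors act on replication genes through this kind of element. The 4 genes were picked for the match. Of 17 higher replication and mitosis genes with a promoter sequence, they were the only 4 that held it. Of all 57 genes on these lists with a promoter sequence, 5 held it (8.77%). The sequences are those of RefSeq for build GRCm38.p6, from 250 bases before to 50 bases after the start of each gene, written 5′ to 3′ on the gene's strand, with the match in capitals (GCGCCAAA where it lies on the opposite strand). They lie at chr1:128359656-128359955 (minus strand), chr1:20820263-20820562 (minus strand), chr8:75109259-75109558 (plus strand) and chr8:122567765-122568064 (plus strand), in that order.
Mcm6: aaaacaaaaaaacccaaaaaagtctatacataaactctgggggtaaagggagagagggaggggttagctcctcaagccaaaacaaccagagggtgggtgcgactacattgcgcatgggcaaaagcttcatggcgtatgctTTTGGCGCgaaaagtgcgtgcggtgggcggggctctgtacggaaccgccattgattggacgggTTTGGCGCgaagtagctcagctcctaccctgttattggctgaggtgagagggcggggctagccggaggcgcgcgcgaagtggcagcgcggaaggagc
Mcm3: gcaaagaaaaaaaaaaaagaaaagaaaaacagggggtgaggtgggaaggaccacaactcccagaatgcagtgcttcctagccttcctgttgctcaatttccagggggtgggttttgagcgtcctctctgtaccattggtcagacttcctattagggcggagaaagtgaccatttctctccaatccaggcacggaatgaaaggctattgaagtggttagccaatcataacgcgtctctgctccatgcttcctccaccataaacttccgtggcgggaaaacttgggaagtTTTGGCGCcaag
Mcm5: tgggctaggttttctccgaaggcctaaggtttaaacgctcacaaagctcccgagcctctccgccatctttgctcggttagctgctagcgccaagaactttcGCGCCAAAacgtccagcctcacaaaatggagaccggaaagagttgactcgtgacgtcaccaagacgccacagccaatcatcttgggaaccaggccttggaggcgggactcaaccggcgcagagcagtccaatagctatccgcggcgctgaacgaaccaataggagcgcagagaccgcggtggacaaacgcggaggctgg
Cdt1: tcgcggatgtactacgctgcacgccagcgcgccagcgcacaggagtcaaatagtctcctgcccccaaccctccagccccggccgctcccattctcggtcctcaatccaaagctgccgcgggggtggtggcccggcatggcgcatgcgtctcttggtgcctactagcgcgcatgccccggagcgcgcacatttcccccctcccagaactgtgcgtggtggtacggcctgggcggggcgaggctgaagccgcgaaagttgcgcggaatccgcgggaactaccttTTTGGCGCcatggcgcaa
The element occurred in the promoter of 11 of 459 higher genes with a promoter sequence (2.40%), 2 of 532 lower genes (0.376%) and 122 of 14367 genes in all (0.849%). A match describes letters only. The 11 higher genes were Mcm6, Mcm3, Mcm5, Cdt1, Ints7, Psmb9, Cox5a, Arhgap11a, Ipmk, Ezh2 and Ncapd2. All 11 lost the call without at least 1 WT array. The 2 lower ones were Hopx and Prrg3. The same promoters were also searched for the TATA box, the nuclear receptor half-site and TCF/LEF-, RUNX-, GLI- and AP-1-type sequences. Each of these was less frequent in higher genes than in all genes, such as the TATA box (7.19% against 9.85%). In lower genes only the GLI-type sequence was more frequent than in all genes (0.376% against 0.195%). The E2F-type element is thus the only one searched that was more frequent in higher genes. Mcm6 had signals of 1384 and 1196 on the CD34-positive arrays and 3744 and 5900.0 on the CD34-negative arrays (log2 difference 1.87, SE 0.301, adjusted p = 0.00565). Mcm5 read 1125 and 530.2 against 3529.9 and 4723 (log2 difference 2.40, SE 0.519, adjusted p = 0.0227), and Cdt1 read 1353 and 522 against 2459.9 and 4271 (log2 difference 1.95, SE 0.457, adjusted p = 0.0321). For all 3 both CD34-positive arrays lay below both CD34-negative arrays. Mcm3 (1.81, adjusted p = 0.0134), the ribonucleotide reductase subunit Rrm2 (1.79, adjusted p = 0.0193) and the polymerase clamp Pcna (1.17, adjusted p = 0.0406) rose alongside. Among mitosis genes, the kinase Aurka rose from 327 and 175 to 841 and 982.5 (log2 difference 1.93, SE 0.371, adjusted p = 0.0136) and the checkpoint target Cdc20 from 466 and 193 to 2288.5 and 1919 (log2 difference 2.80, SE 0.590, adjusted p = 0.0202), whereas the proliferation marker Mki67 read 3433 and 1184 against 5566.5 and 7752 and did not pass (log2 difference 1.70, SE 0.546, adjusted p = 0.1). These counts leaned on single arrays: without each WT array in turn, 12, 0, 1 and 0 (0) replication genes and 9, 0, 1 and 0 (0) mitosis genes were higher. The threshold was missed without CD34-negative 2 for Cdt1 (adjusted p = 0.24) and Rrm2 (adjusted p = 0.16); without CD34-positive 2 for Mcm6 (adjusted p = 0.078), Mcm5 (adjusted p = 0.22), Mcm3 (adjusted p = 0.13), Pcna (adjusted p = 0.27), Aurka (adjusted p = 0.12) and Cdc20 (adjusted p = 0.2). Averaging probe sets ended the call of Mcm6 (adjusted p = 0.64), Cdt1 (adjusted p = 0.21), Aurka (adjusted p = 0.11) and Cdc20 (adjusted p = 0.07).

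On the CD34-positive side, the genes named for their fitted difference or their p were of many kinds, among them a keratin, matrix proteins, channels and signalling proteins. Krt6a, the keratin of the inner bulge layer and companion layer, had signals of 7625 and 8673.5 on the CD34-positive arrays and 132 and 119 on the CD34-negative arrays, 65.0-fold lower in the latter (log2 difference -6.02, SE 0.302, adjusted p = 2.45e-05). Tnc, the matrix glycoprotein tenascin C, read 6946 and 5978 against 111 and 111 (log2 difference -5.86, SE 0.319, adjusted p = 2.46e-05). Tgm5, a transglutaminase, read 6615 and 8015 against 348 and 223 (log2 difference -4.71, SE 0.274, adjusted p = 2.95e-05). All 3 were lower on both CD34-negative arrays with no overlap. Of 9 genes known from the inner bulge and companion layers 3 were lower and 1 higher: besides Krt6a, Krt75 (at least 17.5-fold, log2 -4.99, adjusted p = 0.000698) and Fgf18, a growth factor that keeps follicles at rest (-4.58, adjusted p = 0.000601), were lower, and the metalloproteinase inhibitor Timp3 was higher (1.77, adjusted p = 0.0125). A keratin list without Krt6a gave 4 lower and 1 higher of 44, with Krt75, the bulge keratin Krt24 (-5.91, adjusted p = 0.00335), Krt19 (at least 9.89-fold, log2 -3.52, adjusted p = 0.0171) and Krt78 (-2.35, adjusted p = 0.0145) lower and Krt79 higher, and the counts of lower keratins were 1, 1, 3 and 2 (2) without each WT array. Some of the named genes are better known from other tissues. Chat, the enzyme that makes acetylcholine, fell from 1023 and 2126 to 4.3 and 14.1 (at least 47.4-fold, log2 difference -7.57, SE 0.807, adjusted p = 0.000585). The mechanosensitive potassium channel Kcnk2 (at least 27.0-fold, log2 -6.85, adjusted p = 0.00274), the calcium pump Atp2a3 (at least 18.5-fold, log2 -6.81, adjusted p = 0.000398), the secreted protein Pi15 (at least 44.3-fold, log2 -6.96, adjusted p = 0.0103), the bHLH factor Atoh8 (at least 19.1-fold, log2 -6.08, adjusted p = 0.00555) and the pyrophosphate transporter Ank (-3.19, adjusted p = 0.000161) were lower as well, with Plcl1 (at least 22.3-fold, log2 -7.84, adjusted p = 0.000365), Pdzrn4 (at least 35.1-fold, log2 -6.71, adjusted p = 0.00766) and Nyap1 (at least 9.21-fold, log2 -5.91, adjusted p = 0.00115). Adjusted p rose above 0.05 without CD34-negative 2 for Krt78 (adjusted p = 0.13); without CD34-positive 1 for Pi15 (adjusted p = 0.1) and Atoh8 (adjusted p = 0.071); without CD34-positive 2 for Timp3 (adjusted p = 0.12), Krt24 (adjusted p = 0.058), Krt19 (adjusted p = 0.15), Kcnk2 (adjusted p = 0.066) and Pdzrn4 (adjusted p = 0.12).

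Matrix genes were a second large group on this side. Of 42 collagen genes 13 were lower in the CD34-negative fraction and none higher, with a median of -1.47, or -0.66 with below-background members at their bound. Col6a1, a chain of the microfibrillar collagen VI, had signals of 3698 and 5854 on the CD34-positive arrays and 35.1 and 59.1 on the CD34-negative arrays (log2 difference -6.67, SE 0.890, adjusted p = 0.00201). Its partner chain Col6a2 read 1696 and 2853 against 66.4 and 8.4 (at least 70.7-fold, log2 difference -6.54, SE 0.841, adjusted p = 0.00162). Col18a1, the basement membrane collagen that releases endostatin, read 6454 and 4606 against 624 and 457 (log2 difference -3.35, SE 0.297, adjusted p = 0.00026). Fibrillar and basement membrane collagens were both among the lower genes, including Col1a1 (-5.07, adjusted p = 0.000274), Col1a2 (-4.06, adjusted p = 0.000652), Col5a2 (-4.98, adjusted p = 0.000489), Col7a1 (-2.81, adjusted p = 0.000969) and Col17a1, the hemidesmosomal collagen (-1.15, adjusted p = 0.0113). Of 31 secreted matrix proteins 15 were lower and 1, Smoc2, was higher (1.81, adjusted p = 0.0436). Npnt, the nephronectin that anchors the arrector pili muscle to the bulge, fell (-2.13, adjusted p = 0.00341), as did the matrix proteins Ecm1 (-3.16, adjusted p = 0.000141), Egfl6 (-4.22, adjusted p = 0.000558) and Sparc (-3.52, adjusted p = 0.00381). Has2, a hyaluronan synthase, read 885 and 1391 against 5.5 and 3.7 (at least 35.6-fold, log2 difference -7.94, SE 1.61, adjusted p = 0.0171). Of 56 integrin and basement membrane genes 16 were lower, with Itgb6, part of the integrin that activates latent TGF-β (-4.74, adjusted p = 0.00171), and the laminin chains Lama5 (-1.96, adjusted p = 0.00173) and Lamb3 (-1.56, adjusted p = 0.00838), and 1 was higher, the laminin chain Lama4 (3.29, adjusted p = 0.000585). The collagen, secreted matrix and integrin and basement membrane lists overlap, so their lower counts share genes. Col7a1 and Col17a1 are on the collagen and integrin lists, and Npnt and Egfl6 are on the secreted matrix and integrin lists. Npnt and Postn are on the bulge list too. Col1a1, Col1a2, Col6a1, Col6a2 and Crabp1 are also on the fibroblast and dermal papilla list, of which these 5 of 19 were lower and the other 14 did not pass. The summed signal of that list was 14239 and 15743 on the CD34-positive arrays and 2256 and 1365 on the CD34-negative arrays. Its part in the collagen result was not tested. With single WT arrays left out, 12, 8, 12 and 11 (11) collagens, 9, 6, 11 and 9 (7) matrix proteins and 9, 4, 10 and 7 (5) integrin and basement membrane genes were lower. Calls ended without CD34-negative 1 for Smoc2 (adjusted p = 0.21); without CD34-negative 2 for Col17a1 (adjusted p = 0.13); without CD34-positive 2 for Col6a1 (adjusted p = 0.055), Npnt (adjusted p = 0.052), Sparc (adjusted p = 0.06), Has2 (adjusted p = 0.16) and Lamb3 (adjusted p = 0.1).

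Signalling genes split by pathway and by role. Among WNT ligands and receptors 6 of 43 were lower in the CD34-negative fraction and none higher: besides Lgr5 these were the receptors Fzd2, Fzd9 (-2.94, adjusted p = 0.00171), Fzd1 (-1.63, adjusted p = 0.00565) and Fzd3 (-1.15, adjusted p = 0.0272) and the ligand Wnt7b. Fzd2 fell from 11868 and 13521 to 1231 and 692 (log2 difference -3.78, SE 0.273, adjusted p = 0.000109), and Wnt7b, an epithelial WNT of the growing follicle, from 1493.5 and 1009 to 117 and 136 (log2 difference -3.28, SE 0.424, adjusted p = 0.00168). Of 17 WNT antagonists 3 were lower and 1 higher. Sfrp1, a secreted antagonist, read 12444 and 10064 against 489.5 and 215 (log2 difference -5.11, SE 0.378, adjusted p = 0.000111). The inhibitor-related Dkk3 (-4.92, adjusted p = 0.000237) and Dkkl1 (-2.60, adjusted p = 0.0098) were the other lower members, while Apcdd1, a membrane-bound WNT inhibitor, was higher (1.94, adjusted p = 0.0076). Lgr5 and Dkk3 are also counted on the bulge list. Axin2, the general readout of β-catenin signalling, did not pass (1.02, adjusted p = 0.0533). It passed, as higher, without CD34-negative 2 (adjusted p = 0.037), with the mean of its probe sets (adjusted p = 0.037), with the replicate number as a block (adjusted p = 0.041) and with genes below background left out (adjusted p = 0.042). On leaving out each WT array, 4, 4, 6 and 5 (4) WNT ligands and receptors were lower. Single arrays mattered here, and calls ended without CD34-positive 2 for Fzd1 (adjusted p = 0.065), Fzd3 (adjusted p = 0.19), Dkkl1 (adjusted p = 0.12) and Apcdd1 (adjusted p = 0.092).

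Of 17 Hedgehog genes 6 were lower and none higher: the coreceptors Gas1 and Boc (-2.04, adjusted p = 0.0291), the receptor and target Ptch1, the kinesin Kif7 (-2.38, adjusted p = 0.00247) and the factors Gli1 and Gli2 (-2.58, adjusted p = 0.0278). Gas1 read 10274 and 11308 against 2064 and 1828 (log2 difference -2.47, SE 0.260, adjusted p = 0.000558) and Ptch1 read 5093.5 and 3189 against 984 and 1289.9 (log2 difference -1.84, SE 0.304, adjusted p = 0.00654). BMP and TGF-β antagonists and targets gave 12 lower of 27 and none higher. They included the antagonists Grem1, Fst (-1.61, adjusted p = 0.0176) and Fstl1 (-4.26, adjusted p = 0.00154), the latent TGF-β binding protein Ltbp2 (-3.77, adjusted p = 0.000601) and the BMP targets Id1 (-1.43, adjusted p = 0.0194), Id2 (-2.46, adjusted p = 0.00456), Id3 (-3.17, adjusted p = 0.00441) and Id4 (-2.22, adjusted p = 0.00077). Antagonists and direct targets of BMP were thus both among the lower genes. Ligands and receptors were mixed, since Bmp4 (2.59, adjusted p = 0.0222), Tgfbr2 (2.45, adjusted p = 0.00056) and Tgfbr3 (3.03, adjusted p = 0.00195) were higher and Gdf10 (-5.68, adjusted p = 0.000672) and Tgfbr1 (-1.58, adjusted p = 0.0348) lower. Without each WT array, 2, 3, 5 and 3 (2) Hedgehog genes and 5, 5, 9 and 6 (4) BMP and TGF-β antagonists and targets were lower. Of 15 IGF genes, the binding proteins Igfbp3 (-4.04, adjusted p = 0.000903), Igfbp5 (-4.63, adjusted p = 0.00155), Igfbp6 and Igfbp7 (-4.63, adjusted p = 0.000969) and the receptor Igf2r (-1.88, adjusted p = 0.0308) were lower and Igfbp2 was higher. Igfbp2 read 62.2 and 135 against 1905 and 4731.5 (log2 difference 5.03, SE 0.484, adjusted p = 0.000365) and Igfbp6 read 443 and 322 against 7.3 and 12.8 (at least 12.1-fold, log2 difference -5.29, SE 0.688, adjusted p = 0.00173), so members of 1 family of binding proteins stood on opposite sides. Of 39 FGF genes 3 were higher (7.69%) and 5 lower (12.8%), with the receptors Fgfr1 (-1.92, adjusted p = 0.00121) and Fgfr3 (-2.34, adjusted p = 0.00121) among the lower. Gas1, Grem1, Ltbp2 and the lower FGF gene Fgf18 are on the bulge list too. Gli1, Gli2, Id2 and Id3 are on the hair germ list too, so the lower counts of these lists share genes. The counts of higher FGF genes without each WT array were 3, 2, 3 and 1 (1), and of lower ones 3, 3, 3 and 3 (4). Of 23 Notch genes only the ligand Dll1 (1.83, adjusted p = 0.0103) and the Notch inhibitor Numb (-1.47, adjusted p = 0.0114) passed, in opposite directions. Each makes up 4.35% of the list, near the 3.14% higher and 3.79% lower of all genes. Some genes lost their call, namely without CD34-negative 2 for Fst (adjusted p = 0.16), Id1 (adjusted p = 0.16), Id2 (adjusted p = 0.06), Bmp4 (adjusted p = 0.18), Tgfbr1 (adjusted p = 0.2), Igf2r (adjusted p = 0.18) and Numb (adjusted p = 0.11); without CD34-positive 1 for Ptch1 (adjusted p = 0.062), Id3 (adjusted p = 0.058) and Dll1 (adjusted p = 0.084); without CD34-positive 2 for Boc (adjusted p = 0.25) and Gli2 (adjusted p = 0.16). With probe sets averaged, the call ended for Ptch1 (adjusted p = 0.072).

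Of 33 HOX genes 8 were lower (24.2%) in the CD34-negative fraction and none higher. The median was -1.52, or -0.72 with below-background members at their bound. Hoxd8 read 1761 and 1857.5 against 81.3 and 86.3 (log2 difference -4.43, SE 0.415, adjusted p = 0.000319) and Hoxc8 read 3122.5 and 1918 against 688 and 401 (log2 difference -2.22, SE 0.429, adjusted p = 0.0137). Members of the A, B, C and D clusters were among the 8, and so was Hoxc13, which is also counted on the hair germ list. Of 45 actin-binding and contractile regulator genes, a list made after values were seen, 13 were lower and 1, Pdlim1, was higher (1.57, adjusted p = 0.00396), although the mean of its probe sets had a difference of -0.42 that did not pass. Pdlim3, a scaffold of the actinin-bound Z-disc, fell from 2879.6 and 3462 to 34.4 and 73.1 (log2 difference -5.98, SE 0.493, adjusted p = 0.000205), and the caldesmon gene Cald1 from 1866 and 1599 to 335 and 291 (log2 difference -2.47, SE 0.384, adjusted p = 0.00457). Actin regulators of non-muscle cells were in the group, such as Actn1 (-1.59, adjusted p = 0.00441) and Cnn3 (-3.87, adjusted p = 0.000518). Of 11 muscle markers 1 was lower, the pericyte proteoglycan Cspg4 (-2.65, adjusted p = 0.000905), and none higher. Their summed signal was 4776 and 7341 on the CD34-positive arrays and 1281 and 1632 on the CD34-negative arrays, and its part in the contractile result was not tested. With 1 WT array fewer, 3, 1, 6 and 4 (2) HOX genes and 4, 2, 9 and 4 (3) contractile genes were lower. Among 69 guidance genes 4 were higher and 8 lower, with the semaphorin receptor Nrp2 higher (4.21, adjusted p = 0.00027) and Ephb4 (-1.89, adjusted p = 0.00378) and Plxnb1 (-1.94, adjusted p = 0.00248) lower. The counts of higher guidance genes without each WT array were 1, 2, 1 and 2 (1), and of lower ones 4, 1, 4 and 2 (1). The chemokine Cxcl14 (-2.64, adjusted p = 0.000228) and the receptor Cxcr4 (-3.69, adjusted p = 0.000558) were lower, and the cytokines Il7 (3.74, adjusted p = 0.00203) and Il33 (3.85, adjusted p = 0.0051) higher. The threshold was missed without CD34-negative 2 for Hoxc8 (adjusted p = 0.14); without CD34-positive 2 for Cald1 (adjusted p = 0.057), Actn1 (adjusted p = 0.057), Ephb4 (adjusted p = 0.057) and Il33 (adjusted p = 0.07).

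**Figure D3:**
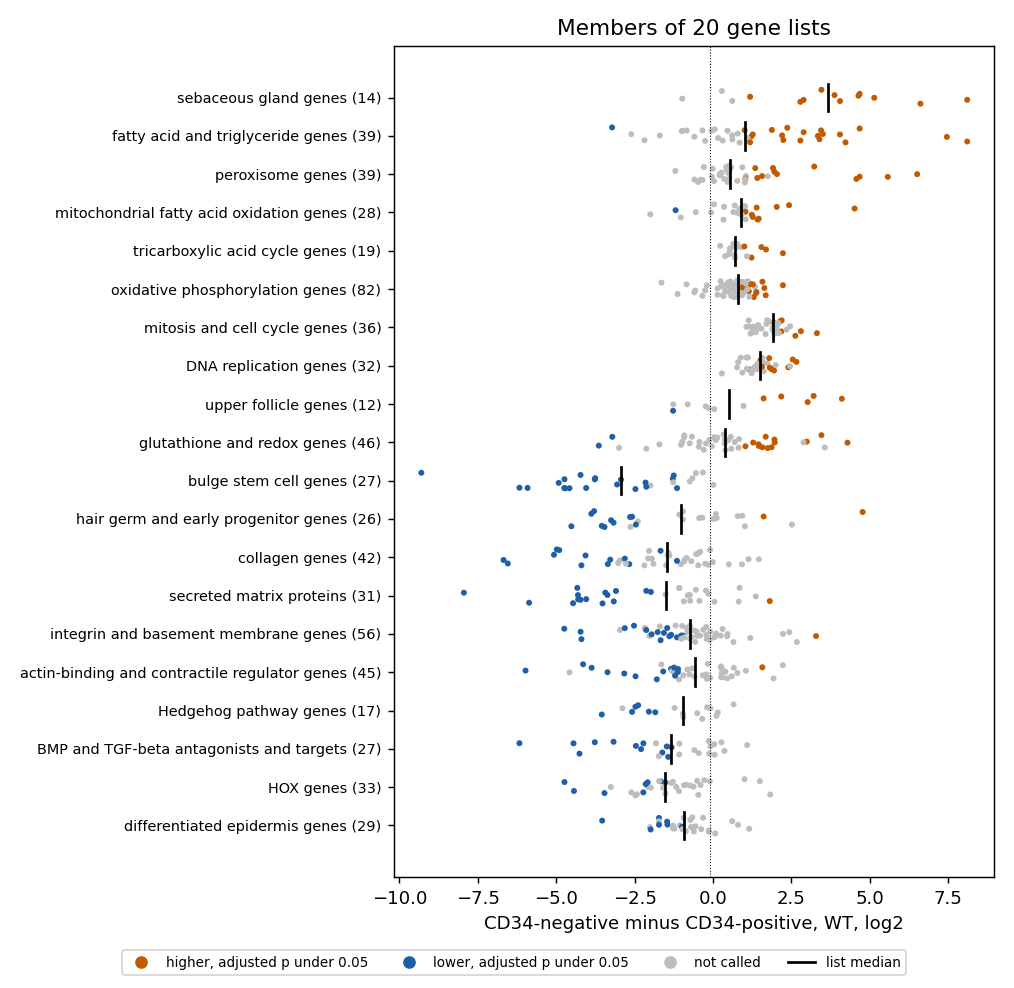
Difference between the WT fractions on the log2 scale for each measured member of 20 gene lists, with the number measured in parentheses, orange and blue for called genes, grey for the rest, a black bar at each list's median and a dotted line at the median of all genes. Sebaceous, fatty acid, mitosis and replication medians lie to the right, and bulge, collagen, matrix and HOX medians to the left.

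Most lists of markers of cells from outside the follicle epithelium held no called gene. Summed signals of the melanocyte, immune and endothelial lists were nevertheless higher on both CD34-positive arrays than on either CD34-negative array. Differences were negative for 10 of 14 melanocyte, 15 of 19 immune and all 12 endothelial genes. They were negative for 7 of 11 Merkel cell, 4 of 6 Schwann cell and all 4 fat cell genes, against 9869 of 18193 genes in all. None of 14 melanocyte, 11 Merkel cell, 19 immune, 12 endothelial, 4 fat cell and 6 Schwann cell genes passed in either direction. Of all genes 6.93% passed, so lists this short would hold few calls at that share. Genes above background in at least 1 fraction were 10 melanocyte, 7 Merkel cell, 15 immune, 5 endothelial, 2 fat cell and 5 Schwann cell genes. The summed signal of each of these lists, over the 2 arrays of a fraction, ran from 3626 to 4882 in CD34-positive and from 2499.6 to 2724 in CD34-negative cells for melanocytes, from 2075 to 3014 and from 1719 to 1756 for immune cells, and from 667 to 786 and from 413 to 419.99 for endothelium. Ptprc, the common leukocyte antigen, was below background on all 4 arrays (-1.03, adjusted p = 0.704), as was the fat cell hormone Adipoq apart from 1 array at the limit (-1.02, adjusted p = 0.531), and the endothelial adhesion protein Pecam1 was above it on 1 array only (-1.86, adjusted p = 0.425). The melanocyte enzyme Dct read 67.1 and 139 against 8.9 and 11.8 (log2 difference -3.23, SE 1.03, adjusted p = 0.0991), and passed without transgenic CD34-negative replicate 1 (adjusted p = 0.044) and with an offset of 50 (adjusted p = 0.032). Merkel cell lists summed to 445 and 681 against 381 and 552, Schwann cell lists to 1270.4 and 1195 against 1099 and 1582, and the 4 fat cell genes to 224 and 302 against 259 and 111.

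The transgenic mice gave a second pair of fractions on 4 other arrays. Their signals do not enter the WT differences, but both comparisons share the variance estimated over all 8 arrays, so their calls are not independent. Runx1 read 658 and 903 against 495 and 489 in WT. On the transgenic arrays it read 19454 and 13694.5 against 12103 and 12877.7, so those cells held far more Runx1 RNA. There 818 genes were higher in the CD34-negative fraction (4.50% of 18193) and 957 were lower (5.26%). Leaving out the transgenic arrays in the same order gave 563, 347, 262 and 397 higher genes and 510, 400, 375 and 790 lower genes. Of the 1261 genes called in WT, 923 were called the same way in the transgenic mice and 0 the opposite way, which is 73.2% of the WT calls and 52% of the 1775 transgenic calls (9.76%). In sign, 1243 of the WT calls went the same way and 18 the other way. Their median difference was 1.74 in transgenic mice against 1.89 in WT for the higher genes, and -2.06 against -2.23 for the lower genes. The WT genes had been picked on their WT values, the transgenic ones not. No gene passed the test of the difference between the 2 genotypes (0.00% in limma), where 839 had an unadjusted p under 0.05 and the smallest adjusted p was 0.91. Without WT CD34-negative replicate 2, 3 genes passed.

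In the transgenic arrays sebaceous genes gave 11 higher of 14 again, the same 11, and bulge genes 22 lower of 27, including the 20 lower in WT. The gate gene Cd34 is counted among these bulge genes. Hair germ genes gave 3 higher and 11 lower, and upper follicle genes 3 higher and 2 lower of 12, with a median of 0.25 against 0.51 in WT. Pparg had signals of 30.5 and 32.0 on the transgenic CD34-positive arrays and 4169 and 4078 on the CD34-negative arrays (difference 7.04, adjusted p = 0.000183), and Lhx2 read 7075 and 7096 against 255 and 382.5 (difference -4.50, adjusted p = 5.82e-05). Krt15, short of the threshold in WT, passed there with a difference of -1.05 (adjusted p = 0.017). Replication genes gave 14 higher, 8 of them called in WT too, and mitosis genes 3 higher, 2 of them called in WT. Oxidative phosphorylation gave 24 higher and cholesterol synthesis 11 higher and 1 lower. Some genes with large WT differences were not called in the transgenic mice. Has2 read 2.4 and 184 on the transgenic CD34-positive and 4.4 and 9.1 on the CD34-negative arrays, where both means were below background, so no size is given. Kank4 read 53.2 and 34.6 against 106 and 213 there, and its WT difference is a bound. The fatty acid transporter Cd36 was higher in WT (at least 18.6-fold, log2 4.23, adjusted p = 0.0308) and read 45.1 and 26.7 against 8.0 and 68.2 in transgenic mice. The difference between genotypes did not pass for these 3 either. Adjusted p rose above 0.05 without CD34-positive 2 for Cd36 (adjusted p = 0.23).

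**Figure D4:**
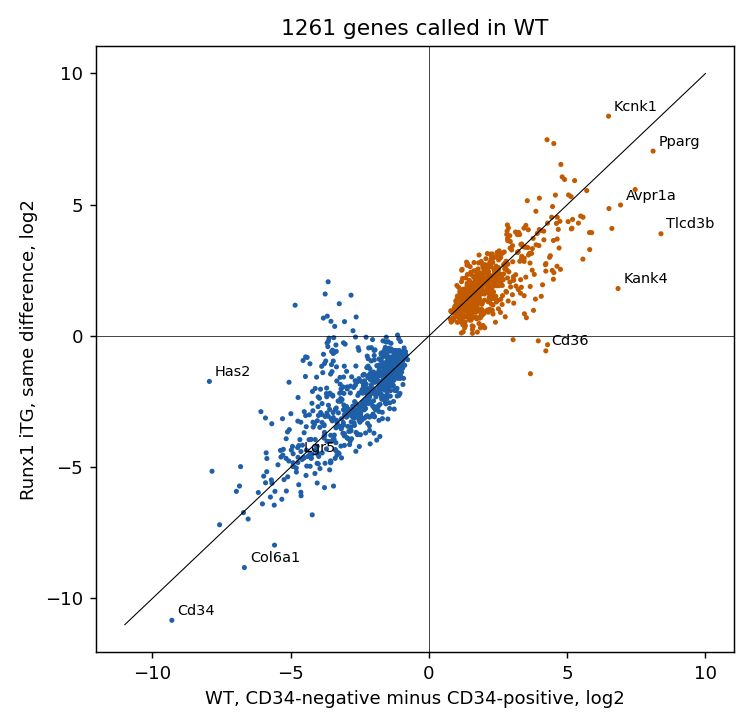
CD34-negative minus CD34-positive difference on the log2 scale in WT (horizontal axis) and in Runx1 iTG mice (vertical axis) for the 1261 genes called in WT, orange for higher and blue for lower, with the line of equality. Points for 1243 genes share a sign on both axes, while Has2 and Cd36 lie far from the line. For 164 of the genes the dimmer WT fraction was below background, so their plotted fitted values are not measured sizes.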

How the data were processed

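RNA from sorted cells was measured on 8 Affymetrix Mouse Genome 430 2.0 arrays after amplification of total RNA with the NuGEN Ovation Pico WTA system, per the labels' protocols. The authors deposited linear intensity values of 45101 probe sets, whose program and scaling are not given in the sources used here. After removal of 64 control probe sets, arrays were brought to 1 shared 75th percentile. A floor at the lowest array's 5th percentile (2.41, which replaced 3.48% of values) preceded the log2 of the deposited intensities. Amplification and this floor make dim genes less precise. The brightest of a gene's probe sets stood for the gene, and probe sets with several symbols were left unnamed. Of 47 genes named by rule, 24 had several probe sets, all in the same direction for 22; the exceptions were Itga6 and Runx1, neither called.

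The limma model (version 3.58.1, R 4.3.3) held a mean for each of 4 groups over all 8 arrays, used an intensity trend in the prior variance and Benjamini-Hochberg adjustment over 18193 genes. Every adjusted p in the text comes from this fit unless another setting is named. The fit was also run on simulated data drawn with its own variance estimates. That run cannot check whether the model's assumptions hold on these arrays. Figures were drawn with matplotlib 3.10.9.

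The named genes are Runx1, the sort genes, Pparg, Lhx2, the 15 largest differences and the 10 smallest adjusted p per direction among called genes whose arrays do not overlap and whose brighter mean reaches the median of all probe sets, plus members of 65 gene lists, taken in the main by p. The gene groups compared and the lists were chosen with earlier results of these data known, and 6 of the lists (peroxisome, mitochondrial fatty acid oxidation, tricarboxylic acid cycle, nuclear receptor, carboxylesterase, contractile regulator) after values had been seen. The lists therefore give counts and medians, with no test. Of 17 carboxylesterase genes 3 were higher. Promoters are RefSeq's, with both strands searched. Alternatives were 17 settings, and their effects are given at the end.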

Additional observations from a re-analysis of the deposited data

How the results depend on the processing

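WT calls that stayed in the fit kept their sign under 16 of 17 alternatives, and 1257 of 1261 did with the mean of a gene's probe sets, where Pdlim1 went to -0.42. For most alternatives this was fixed beforehand. Settings that change only the variance, the replicate block, the genes kept or the transgenic arrays leave the WT differences as they were. Without 1 WT array a called gene cannot change sign, since its arrays do not overlap between the fractions. With no intensity trend 150 genes were higher and 261 lower in the WT CD34-negative fraction, and in the transgenic one 278 and 430. With only the arrays of the genotype compared the counts were 311 and 441 in WT and 395 and 437 in transgenic mice. With day 20 arrays only they were 301 and 419 in WT and 107 and 254 in transgenic mice. These fits have fewer arrays or a different prior variance. Leaving out 1 array gave 151 to 587 higher and 181 to 655 lower genes in WT, 262 to 696 higher and 375 to 861 lower in transgenic mice, and 0 to 3 genes that differed between genotypes, where the highest came without WT CD34-negative replicate 2. Quantile scaling, no scaling, an offset of 50, the mean of probe sets and leaving out genes below background in every group moved the WT counts by less than 1.5 times.

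With the replicate number as a block, 632 genes were higher and 743 lower in WT, and 888 and 1042 in transgenic mice. Same-numbered WT arrays shared little deviation (correlation 0.0265, and 0.0822 in transgenic mice) over all genes. No label says that a number marks shared animals, but same-numbered arrays also share sex by Y-linked and Xist signal, and transgenic replicates 2 share day 21, so the block carries these as well. Of 200 called genes named in the text, 103 kept their call without each single WT array, and 91 lost it with no intensity trend (Acox2, Actn1, Aldh1a1, Apcdd1, Aqp3, Arhgap11a, Atoh8, Atp5b, Aurka, Bmp4, Boc, Cald1, Ccnd3, Cd36, Cd47, Cdc20, Cdkn2c, Cdsn, Cdt1, Col17a1, Cox5a, Cux1, Cyc1, Cyp26b1, Decr1, Defb6, Dgat2, Dll1, Edar, Egr3, Ephb4, Esr1, Ezh2, Fasn, Fdps, Fgf13, Fos, Fst, Fzd1, Fzd3, Gata6, Gli1, Gli2, Gpam, Gpx4, Gsr, Has2, Hoxc13, Hoxc8, Hsd17b4, Hspd1, Hspe1, Id1, Id2, Id3, Igf2r, Ints7, Ipmk, Kcnma1, Krt24, Krt78, Lamb3, Lef1, Lor, Lrig1, Mcm3, Mcm5, Mcm6, Ncapd2, Npnt, Numb, Pcna, Pdk2, Pdlim1, Pdzrn4, Pex11a, Pex16, Pi15, Plet1, Prrg3, Psmb9, Ptch1, Rrm2, Sdhd, Smoc2, Sox9, Sparc, Tcf7l1, Tgfbr1, Thrb and Timp3). With only the arrays of the genotype compared, 32 of the 200 lost it. There or with day 20 arrays only, Fads3 and Gstt4 were the genes outside the 91 above that lost it. Leaving out a transgenic array, which leaves the WT differences as they were, ended the WT call of Arhgap11a, Boc, Ccnd3, Cd36, Cdt1, Cyp26b1, Ezh2, Fasn, Gli2, Gstt4, Igf2r, Ipmk, Ncapd2, Pcna, Smoc2 and Tgfbr1 (adjusted p 0.0504 to 0.0725). With 2 arrays per fraction the median SE was 0.515, and 114 of the lower and 50 of the higher genes had a dimmer fraction below background, so their size is only a bound.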

Other observations

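Other gene lists gave calls in both directions between the WT fractions. Of 16 antigen presentation genes 3 were higher (18.75%) and 1 lower (6.25%) in the CD34-negative fraction, against 3.14% and 3.79% of all genes. The immunoproteasome subunits Psmb8 (2.20, adjusted p = 0.000969) and Psmb9 (1.52, adjusted p = 0.00958) were higher, and Cd47, the signal that protects cells from phagocytes, was lower (-1.02, adjusted p = 0.0121). Of 20 retinoid genes 2 were higher (10%) and 2 lower (10%). Aldh1a1, which makes retinoic acid, rose from 21.3 and 17.3 to 139 and 453.5 (at least 8.07-fold, log2 difference 3.71, SE 0.707, adjusted p = 0.0129), and the retinoic acid binding protein Crabp1 fell from 774 and 721 to 30.6 and 12.3 (at least 24.0-fold, log2 difference -5.27, SE 0.703, adjusted p = 0.00201). Cyp26b1, which degrades retinoic acid, was also lower (-2.13, adjusted p = 0.0367). With single WT arrays left out, 2, 3, 2 and 1 (1) antigen presentation genes and 1, 0, 1 and 0 (0) retinoid genes were higher, and 1, 1, 1 and 1 (1) retinoid genes were lower. Calls ended without CD34-negative 2 for Psmb9 (adjusted p = 0.1), Cd47 (adjusted p = 0.12) and Aldh1a1 (adjusted p = 0.14); without CD34-positive 2 for Cyp26b1 (adjusted p = 0.28). Averaging probe sets ended the call of Psmb8 (adjusted p = 0.15).

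Of 154 ion channel genes 6 were higher (3.90%) and 9 lower (5.84%), near the 3.14% and 3.79% of all genes. The calcium-activated potassium channel Kcnma1 read 328 and 548 against 21.6 and 3.6 (at least 13.6-fold, log2 difference -5.59, SE 0.964, adjusted p = 0.00796), and the warmth-sensitive channel Trpv4 read 1641 and 1676 against 71.9 and 79.2 (log2 difference -4.46, SE 0.377, adjusted p = 0.000228). The chloride channel regulators Clca3a1 (3.92, adjusted p = 0.000648) and Clca3a2 (2.52, adjusted p = 0.000507) were higher. Without each WT array, 3, 3, 3 and 3 (4) channel genes were higher and 4, 1, 6 and 5 (6) lower. Of 65 chaperone genes 5 were higher (7.69%) and 4 lower (6.15%). Of 20 G1 phase regulators 1 was higher (5%), the inhibitor Cdkn2c (2.09, adjusted p = 0.0174), and 1 lower (5%), the cyclin Ccnd3 (-1.16, adjusted p = 0.0325). The G1 shares are near those of all genes. The chaperone counts without each WT array were 4, 0, 2 and 0 (0) higher and 0, 1, 3 and 0 (0) lower. Single arrays mattered here, and calls ended without CD34-positive 2 for Kcnma1 (adjusted p = 0.11), Cdkn2c (adjusted p = 0.17) and Ccnd3 (adjusted p = 0.19). With probe sets averaged, the call ended for Ccnd3 (adjusted p = 0.56).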
